A study of Mus musculus with 8 samples.

Results

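The integrated stress response and the unfolded protein response were examined through 39 named genes among the 16397 genes of the count table. The members were listed by name, as 10 sensors and transcription factors, 15 targets of the transcription factor ATF4 and 14 chaperones and folding factors of the endoplasmic reticulum (ER). All 39 were in the table, and 38 of them were among the 13707 protein-coding genes tested. Trib3 was not tested, because its mean count of 5.0 was below the minimum of 10.

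RNA was sequenced from E15.5 hippocampi of 4 intrauterine growth restricted (IUGR) and 4 sham C57Bl/6J mouse fetuses of both sexes, with 1 library per sample. IUGR was modeled by maternal hypertension, for which dams received U-46619, an analog of thromboxane A2, from a micro-osmotic pump placed at e12.5. Sham dams carried a pump with vehicle from the same day, so that surgery was common to both groups. The IUGR samples are named T1-1, T1-3, T1-4 and T1-5 and the sham samples S1-4, S1-6, S3-1 and S3-4. The labels do not say whether the samples came from separate dams or what the prefixes stand for, so p values here measure only the spread between these samples.

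When unfolded proteins collect in the ER, the sensors IRE1 (Ern1), PERK (Eif2ak3) and ATF6 are released or activated. ATF6 and the spliced form of XBP1 then raise the genes of ER chaperones. PERK and the related kinases GCN2 (Eif2ak4, amino acid shortage) and PKR (Eif2ak2, double-stranded RNA) phosphorylate eIF2α, which lowers protein synthesis but increases translation of ATF4, and ATF4 raises genes of amino acid synthesis, amino acid uptake and tRNA charging. Counts per gene do not measure eIF2α phosphorylation, ATF4 translation, ATF6 cleavage or Xbp1 splicing, which are the first steps of these pathways.

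The response elements that separate the branches could be read in the RefSeq promoter windows of GRCm38.p6, each from 250 bases before to 50 bases after the gene start. Windows were matched by symbol for 34 of the 39 members. The ER stress element ERSE (searched on both strands as CCAAT, 9 bases of any kind and CCACG) was in 7 of 13 ER chaperone windows, in 0 of 12 ATF4 target genes, in 0 of 9 sensor and transcription factor genes and in 0.137% of all genes with a window. Its variant ERSE-II (ATTGG, 1 base of any kind and CCACG) was in 2 other ER chaperones, Herpud1 and Dnajb11, and in 0.0444% of all genes. The C/EBP-ATF element CARE (TGATGNAA) was in 6 of 12 ATF4 targets, in 1 of 9 sensors and transcription factors (Atf3), in 1 of 13 ER chaperones (Herpud1) and in 4.51% of all genes. The UPR element core (TGACGTGG) was in 0 of the 34 members and in 0.714% of all genes. A match is only a description of the letters, and the Pdia4 window held none of the 4 motifs.

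The stretches below are shown for the members to which the measurements return, 5′ to 3′ on the strand of the gene, with the matched letters in capitals. Those of Hspa5, Hsp90b1, Dnajc3 and Herpud1 hold an ERSE or ERSE-II, and those of Asns, Chac1 and Slc7a11 hold a CARE. A motif on the opposite strand appears as its reverse complement.
Hspa5 ERSE, chr2:34772020-34772048, + strand: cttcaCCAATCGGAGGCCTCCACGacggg
Hsp90b1 first ERSE, chr10:86705626-86705668, - strand: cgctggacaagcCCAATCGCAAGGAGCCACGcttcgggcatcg
Hsp90b1 second ERSE, chr10:86705521-86705563, - strand: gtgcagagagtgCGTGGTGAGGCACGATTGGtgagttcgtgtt
Dnajc3 ERSE, chr14:118937815-118937857, + strand: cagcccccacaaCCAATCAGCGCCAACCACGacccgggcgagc
Herpud1 ERSE-II, chr8:94386365-94386399, + strand: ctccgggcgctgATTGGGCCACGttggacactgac
Asns CARE, chr6:7693220-7693237, - strand: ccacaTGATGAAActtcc
Chac1 CARE, chr2:119351037-119351068, + strand: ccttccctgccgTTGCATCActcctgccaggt
Slc7a11 first CARE, chr3:50443660-50443691, - strand: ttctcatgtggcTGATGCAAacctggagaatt
Slc7a11 second CARE, chr3:50443641-50443672, - strand: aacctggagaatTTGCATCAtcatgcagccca

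Total counts ranged from 11212632 to 15405748 (sham) and from 12919546 to 16672463 (IUGR), and the groups overlapped in depth. Levels are given as CPM (counts per 1000000 counts, on library sizes adjusted by edgeR's TMM method), and fold changes as log2 of IUGR over sham with the standard error (SE). The libraries also differed in cell type markers. The choroid plexus list, 13 genes of the epithelium that makes cerebrospinal fluid, summed to 56.0 to 1317 CPM in IUGR samples, compared with 5557 to 12210 CPM in sham samples. At an unadjusted p under 0.05, 11 of its 11 tested genes were lower, beside 6.62% of all tested genes, and 3 were called, beside 1.46%. The meningeal and fibroblast list, 8 genes, summed to 70.2 to 2778 CPM in IUGR samples, compared with 264 to 542 CPM in sham samples, and T1-3 was highest and T1-4 lowest of the 8 libraries. The neuron list, 10 genes, summed to 5730 to 6222 CPM in IUGR samples, compared with 4090 to 5492 CPM in sham samples. At an unadjusted p under 0.05, 5 of its genes (50%) were higher, beside 4.46% of all tested genes. No gene of these 3 lists was at 0 in any library, nor was any of the 8 genes of the dorsal pallium and hippocampus list. That list summed to 983 to 1155 CPM in IUGR samples, within the 852 to 1679 CPM of the sham samples, and 8 of its 8 genes had a negative log2 fold change (median -0.37), with 1 at an unadjusted p under 0.05 (Prox1). In bulk tissue, fewer cells of a type and less RNA per cell cannot be told apart. The part of these marker differences in the members' values was not tested. The choroid plexus level, used as a covariate in 1 fit below, did not overlap between the groups. Its mean log2 CPM was 0.17 to 3.91 in IUGR and 5.62 to 6.33 in sham samples. That fit therefore cannot cleanly separate the group from the choroid plexus level, and no conclusion is drawn from its values.

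No member was differentially expressed between IUGR and sham hippocampi by edgeR's quasi-likelihood test, with calls made where the adjusted p did not exceed 0.05 and the absolute log2 fold change reached 1. Across all tested genes, 200 of 13707 (1.46%) met both criteria, with 0.102% of all genes higher and 1.36% lower in IUGR. At an adjusted p of at most 0.05 alone the count was again 0 of 38 members, beside 1.55% of all genes, and DESeq2 and limma-voom also called 0 members, beside 3.10% and 2.39% of all genes by both criteria. A further fit took the number in the sample names as a replicate block. It held only the 5 samples whose number occurs in both groups (T1-1, T1-4, S1-4, S3-1 and S3-4). With the choroid plexus level as a covariate, or with this replicate block, 1 member (Slc7a11) was called, in opposite directions, beside 1.65% and 3.22% of all genes. At an unadjusted p under 0.05 there were 3 members, or 7.89% of the 38, beside 11.1% of all genes, namely 1 higher (Chac1, beside 4.46% of all genes) and 2 lower (Pdia4 and Dnajc3, beside 6.62%). The groups did not overlap for 2 members, beside 7.14% of all genes; 2 lay below the sham samples, beside 5.06%, and 0 lay above, beside 2.08%. These shares of the members were near or below those of all genes. Without T1-1 and T1-4, the IUGR libraries with the lowest choroid plexus levels, 0 members were called, beside 1.74% of all genes in that fit, and 4 had an unadjusted p under 0.05, beside 14.0%. Of the 38 members, 19 had a positive and 19 a negative log2 fold change, with a median of -0.01 beside -0.02 over all genes, and 29 (76.3%) lay within 0.25 of 0 beside 69.7% of all genes.

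The intervals around these values differed in width between members. The 95% confidence interval of the log2 fold change lay inside -1 to 1 for 34 of 38 members (89.5%), beside 76.8% of all genes. It lay inside -0.5 to 0.5 for only 20 of 38 members (52.6%), beside 39% of all genes. Where the mean count reached 100, it lay inside -1 to 1 for 34 of 35 members and for 88.9% of all genes. For the ER chaperones it lay inside -1 to 1 in 14 of 14 and inside -0.5 to 0.5 in 12 of 14, whereas for the ATF4 targets the counts were 11 of 14 and 3 of 14. The intervals that reached past 1 belonged to Atf3, Chac1, Slc7a3 and Slc7a11, and for these genes a change of 2-fold was within what the data allow.

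**Figure D1:**
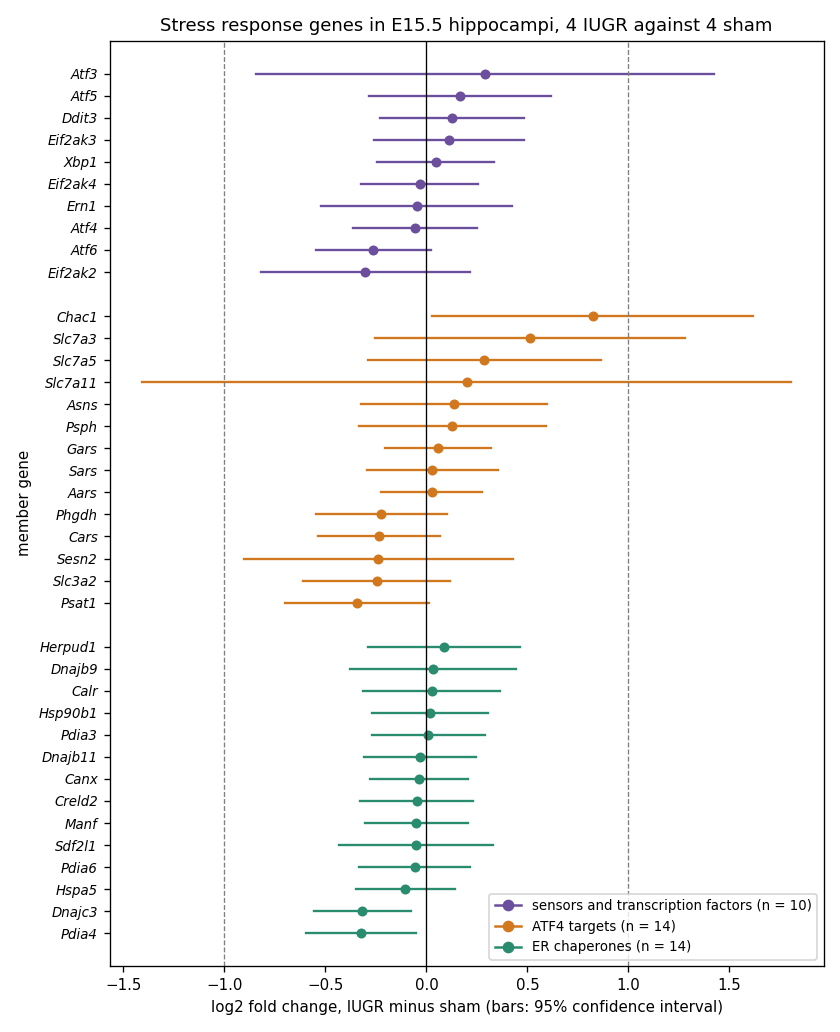
Log2 fold change (IUGR minus sham, x axis) of the 38 tested members, 1 per line, in 3 classes. Points are edgeR estimates, bars are 95% confidence intervals and dashed lines mark -1 and 1; most intervals cross 0, those of Pdia4 and Dnajc3 lie below it and that of Chac1 lies above it.

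Sensors and transcription factors showed no common direction. Their median log2 fold change was 0.01, 5 were higher and 5 lower, and 0 of 10 had an unadjusted p under 0.05, beside 11.1% of all genes. Eif2ak3 (PERK) was at 61.2 (T1-1), 43.9 (T1-3), 38.9 (T1-4) and 41.9 CPM (T1-5) in IUGR and at 47.7 (S1-4), 46.8 (S1-6), 39.5 (S3-1) and 38.2 CPM (S3-4) in sham samples. T1-1 stood above all other samples and the remaining values were intermixed (log2 fold change 0.11, SE 0.17, edgeR adjusted p = 1.00). Eif2ak2 (PKR) had the lowest log2 fold change of the class and was at 12.4, 18.6, 10.7 and 16.7 CPM in IUGR and 18.2, 12.6, 18.8 and 22.4 CPM in sham samples, in the same sample order. The groups overlapped (-0.30, SE 0.23, adjusted p = 0.882 by edgeR), and the value was -0.18 without T1-4 or without S3-4, -0.03 without both T1-1 and T1-4, and ran from -0.73 with the replicate block to 0.29 with the choroid plexus covariate over 20 alternatives. Eif2ak4 (GCN2) and Ern1 (IRE1) had log2 fold changes of -0.03 and -0.05. Atf6 was at 45.1 to 57.9 CPM in IUGR samples, compared with 54.2 to 63.1 CPM in sham samples, and only T1-1 reached the sham range (-0.26, SE 0.13, edgeR adjusted p = 0.519, -0.38 to -0.15 over 20 alternatives).

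Atf4, Ddit3 and Xbp1, through which these sensors act, had log2 fold changes between -0.06 and 0.13. Atf4 was at 170, 165, 196 and 189 CPM in IUGR samples T1-1, T1-3, T1-4 and T1-5 and at 206, 160, 220 and 162 CPM in sham samples S1-4, S1-6, S3-1 and S3-4. The IUGR values all fell between the lowest and highest sham values (log2 fold change -0.06, SE 0.14, edgeR adjusted p = 1.00, 95% confidence interval -0.36 to 0.25). Ddit3 (CHOP), which promotes cell death when ER stress persists, was at 11.9, 14.4, 13.8 and 11.7 CPM in IUGR and 11.6, 11.95, 12.7 and 11.3 CPM in sham samples. The lowest samples of both groups were alike, and 2 IUGR samples lay above every sham sample (0.13, SE 0.16, adjusted p = 1.00 by edgeR). The span of Ddit3 overlaps Mars, a tRNA synthetase gene on the opposite strand, and the strand setting of the counting is not given in the sources used here; Eif2ak2, Atf5, Psph, Slc7a5, Pdia3, Pdia6, Hsp90b1 and Manf also overlap a gene on the other strand. Xbp1 was at 87.5, 104, 76.8 and 92.3 CPM in IUGR and 86.0, 93.2, 93.6 and 76.7 CPM in sham samples, with the groups intermixed (0.05, SE 0.13, edgeR adjusted p = 1.00). Atf3, a factor induced by many stresses, was scarce, at 1.27, 1.97, 0.253 and 1.06 CPM in IUGR and 1.11, 0.952, 1.10 and 0.642 CPM in sham samples. Its mean count was 14.0, and its fold change had the widest interval of the class (0.29, SE 0.51, edgeR adjusted p = 1.00); it was 1.41 with the choroid plexus covariate (edgeR adjusted p = 0.474), -0.0847 without T1-3 and -0.55 with the replicate block. Atf5, a relative of ATF4 that is translated in the same way, had a log2 fold change of 0.17 with overlapping groups.

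The ATF4 targets did not move in 1 direction. Their median log2 fold change was 0.04, and 9 were higher and 5 lower. An unadjusted p under 0.05 was found for 1 of 14 (7.14%), beside 11.1% of all genes. The groups did not separate for any of them, beside 7.14% of all genes. Chac1, an enzyme that degrades glutathione, had the largest rise of the tested members in the main edgeR fit (all 8 samples, no covariate). It was at 3.52 (T1-1), 5.29 (T1-3), 2.44 (T1-4) and 2.36 CPM (T1-5) in IUGR and at 2.77 (S1-4), 1.82 (S1-6), 1.80 (S3-1) and 1.35 CPM (S3-4) in sham samples. S1-4 lay above the 2 lowest IUGR samples, and the estimate was 1.77-fold higher in IUGR (log2 fold change 0.82, SE 0.36, edgeR adjusted p = 0.420). The mean count of Chac1 was 35.8, its log2 fold change was 0.56 without T1-3 and 0.57 with only the S1 sham samples, and it was 1.35 with the choroid plexus level as a covariate; its adjusted p was at least 0.324 in every alternative. Sesn2, a leucine-sensing inhibitor of mTORC1, was at 6.62 to 14.7 CPM in IUGR samples, compared with 6.75 to 13.9 CPM in sham samples. Trib3, a pseudokinase that restrains ATF4 and CHOP, was at 0.525, 0.983, 0.169 and 0.304 CPM in IUGR and 0.555, 0.0866, 0.157 and 0.143 CPM in sham samples, too few counts for a comparison.

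The genes of serine and asparagine synthesis showed both directions. Psat1, a transaminase of the serine pathway, had the lowest log2 fold change of the tested members in the main edgeR fit (all 8 samples, no covariate). It was at 340, 235, 345 and 265 CPM in IUGR and at 327, 360, 361 and 453 CPM in sham samples. S1-4 lay below the 2 highest IUGR samples, and the difference did not pass the test (log2 fold change -0.34, SE 0.16, adjusted p = 0.483 by edgeR). The value was -0.21 without T1-3, -0.59 without T1-1 and T1-4 (edgeR adjusted p = 0.154), -0.87 with the choroid plexus covariate (edgeR adjusted p = 0.114) and -0.09 with the replicate block, so that its size and its place in the order of members varied with the samples and the covariate. Phgdh, the first enzyme of the same pathway, had a log2 fold change of -0.22, and Psph, the last, one of 0.13. Asns (asparagine synthetase), whose promoter stretch is given above, was at 29.3, 39.4, 23.2 and 36.7 CPM in IUGR and 33.7, 25.5, 35.1 and 22.8 CPM in sham samples. The Asns values were intermixed (0.14, SE 0.21, edgeR adjusted p = 1.00), and the log2 fold change was 0.74 with the choroid plexus covariate (edgeR adjusted p = 0.313) and -0.22 with the replicate block.

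Of the 4 tRNA synthetases, 3 lay close to sham levels. Aars, Gars and Sars had log2 fold changes of 0.03, 0.06 and 0.03, and Cars one of -0.23. Gars was at 187 to 246 CPM in IUGR samples, compared with 194 to 211 CPM in sham samples, so that the sham range lay inside the IUGR range. The amino acid transporters varied more. Slc7a5 and its heavy chain Slc3a2, which form the large neutral amino acid exchanger, had log2 fold changes of 0.29 and -0.25 with overlapping groups. Slc7a3, a cationic amino acid transporter, was at 1.42 to 2.21 CPM in IUGR samples, compared with 0.855 to 1.76 CPM in sham samples (0.51, SE 0.35, edgeR adjusted p = 0.789).

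Slc7a11 (xCT), which exchanges cystine for glutamate and feeds glutathione synthesis, differed most between IUGR samples and was chosen for description after its values were seen. It was at 14.2 CPM in T1-1, 110 CPM in T1-3, 3.79 CPM in T1-4 and 62.7 CPM in T1-5. The sham samples lay together at 48.3, 33.3, 44.2 and 40.9 CPM, with 2 IUGR samples above and 2 below all of them. The standard deviation of log2 CPM was 2.17 in IUGR, at the 99.5th percentile of all tested genes, and 0.23 in sham samples. The group means therefore said little (log2 fold change 0.20, SE 0.72, 95% confidence interval -1.41 to 1.81, edgeR adjusted p = 1.00). The meningeal and fibroblast list followed the same order in the IUGR samples, with 397 CPM in T1-1, 2778 CPM in T1-3, 70.2 CPM in T1-4 and 768 CPM in T1-5, whereas the sham order differed. This order was not particular to the meningeal list. The choroid plexus list had it too, with 81.2 CPM in T1-1, 1317 CPM in T1-3, 56.0 CPM in T1-4 and 884 CPM in T1-5, and so did the endothelium, microglia and erythroid lists (182 to 322, 49.7 to 125 and 648 to 2115 CPM over the IUGR samples). With the choroid plexus level as a covariate Slc7a11 was called higher in IUGR (3.01, edgeR adjusted p = 0.0242), and with the replicate block it was called lower (-2.56, edgeR adjusted p = 0.0161). Of the IUGR samples, the block fit held only T1-1 and T1-4, where Slc7a11 was lowest (14.2 and 3.79 CPM). Without T1-1 and T1-4 its log2 fold change was 1.05 (edgeR adjusted p = 0.0686). With limma-voom the sign was negative (-0.66), as it was without T1-3 (-0.61).

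**Figure D2:**
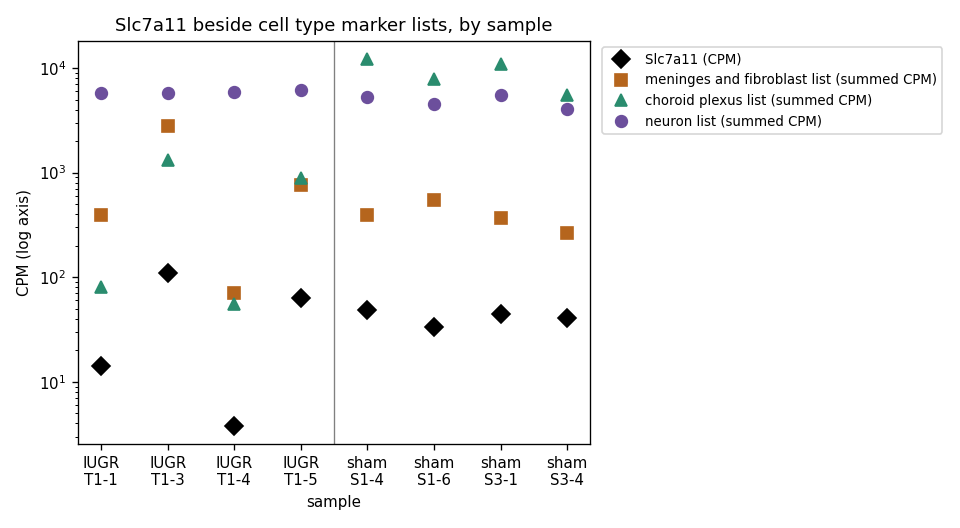
CPM of Slc7a11 and summed CPM of the meningeal and fibroblast, choroid plexus and neuron marker lists in each of the 8 samples, on a log axis. Slc7a11 runs from 3.79 CPM in T1-4 to 110 CPM in T1-3 and from 33.3 to 48.3 CPM in sham samples, and the meningeal and the choroid plexus lists both have the order of Slc7a11 across the 4 IUGR samples.

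The 5 highest members per kilobase of exonic length were ER chaperones. Sham levels were 194 CPM per kb for Hsp90b1 (GRP94), 162 for Calr (calreticulin), 159 for Canx (calnexin), 151 for Hspa5 (BiP) and 110 for Pdia4, compared with 88.3 for Psat1 and 79.3 for Atf4 on the same scale. At the other end were Trib3 at 0.111, Slc7a3 at 0.309 and Atf3 at 0.441 CPM per kb. The median log2 fold change of the 14 chaperones was -0.04, 5 were higher and 9 lower, and 2 (14.3%, beside 11.1% of all genes) had an unadjusted p under 0.05. Hspa5, the Hsp70 of the ER lumen and the usual marker of the unfolded protein response, was at 593, 652, 538 and 595 CPM in IUGR samples T1-1, T1-3, T1-4 and T1-5 and at 623, 670, 641 and 621 CPM in sham samples S1-4, S1-6, S3-1 and S3-4. T1-3 lay within the sham range and the other 3 IUGR samples lay below it (log2 fold change -0.10, SE 0.11, 95% confidence interval -0.35 to 0.14, edgeR adjusted p = 0.998).

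Pdia4 and Dnajc3 were the 2 members whose groups did not overlap. Pdia4 (ERp72), a disulfide isomerase, was at 238 (T1-1), 218 (T1-3), 205 (T1-4) and 183 CPM (T1-5) in IUGR and at 300 (S1-4), 259 (S1-6), 251 (S3-1) and 247 CPM (S3-4) in sham samples. The highest IUGR sample lay just under the lowest sham sample, and the estimate was 20.0% lower in IUGR (log2 fold change -0.32, SE 0.12, edgeR adjusted p = 0.319). Dnajc3 (P58IPK), a cochaperone of BiP that also inhibits PKR and PERK, was at 83.6, 89.1, 79.0 and 92.3 CPM in IUGR and at 109, 101, 111 and 107 CPM in sham samples. The IUGR values were again all below the sham values, by 19.7% in the estimate (-0.32, SE 0.11, edgeR adjusted p = 0.234). The exact two-sided permutation p of each gene was 0.0286, the smallest that 4 against 4 samples can give. Any gene whose groups do not overlap has this p, as 7.14% of all genes do, so it adds nothing to the non-overlap. With the choroid plexus level as a covariate the log2 fold change was -0.41 for Pdia4 and -0.15 for Dnajc3, neither past the test, and with the S3 sham samples alone it was -0.21 for Pdia4. The direction of both was negative in all 20 alternatives, most of which share samples.

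The other 11 chaperones lay between -0.06 and 0.09. Herpud1, an ER membrane protein of ER-associated degradation (ERAD) whose promoter carries an ERSE-II and a CARE, had the largest rise and was at 43.3, 44.5, 35.0 and 28.8 CPM in IUGR and 42.4, 35.0, 32.7 and 32.9 CPM in sham samples. The IUGR values reached both above and below the sham values (log2 fold change 0.09, SE 0.17, edgeR adjusted p = 1.00). Hsp90b1, with 2 ERSE matches, had a log2 fold change of 0.02, Calr one of 0.03 and Canx one of -0.04. The disulfide isomerases Pdia3 and Pdia6 were at 0.01 and -0.06, and the J-domain cochaperones Dnajb9 and Dnajb11 at 0.03 and -0.03. Sdf2l1, Manf and Creld2, which rise readily under ER stress, were at -0.05, -0.05 and -0.05. Creld2 was at 33.2 to 34.6 CPM in IUGR samples, compared with 29.8 to 37.8 CPM in sham samples, the smallest IUGR spread of the members on the log2 scale.

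**Figure D3:**
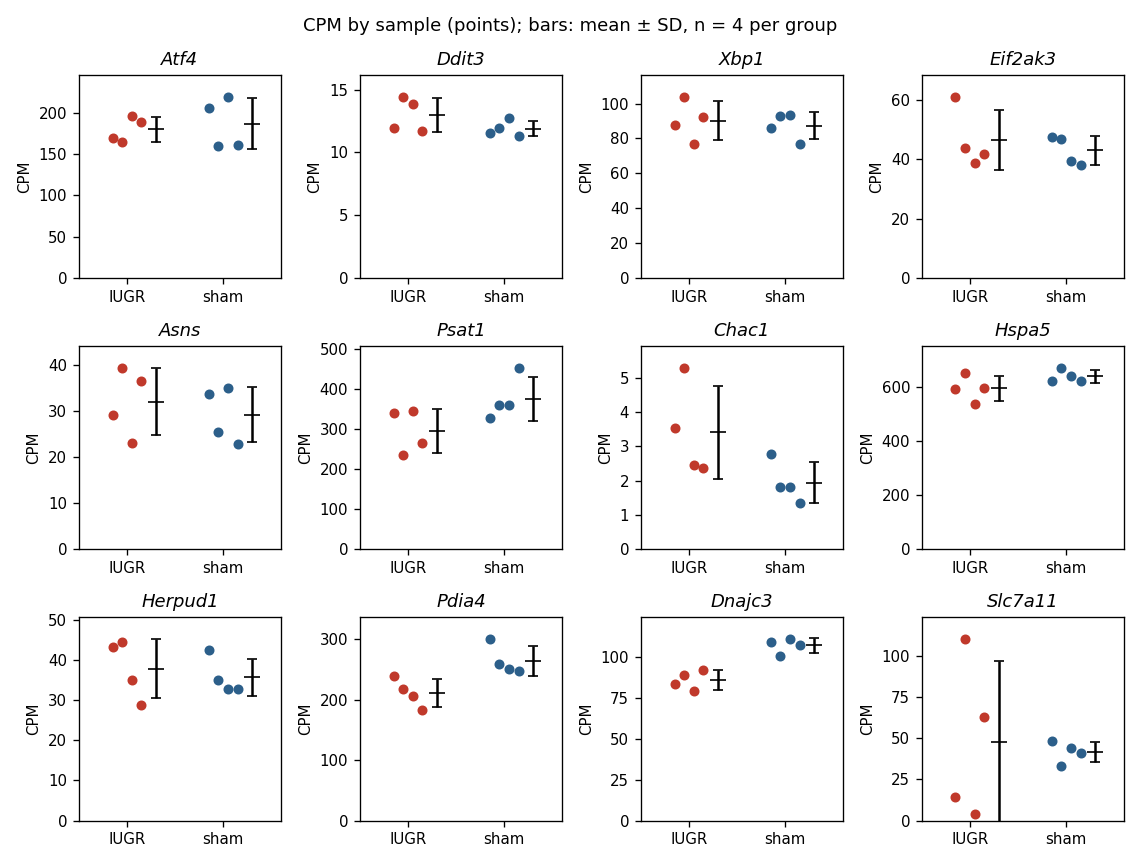
CPM (y axis, from 0) of 12 members in 4 IUGR and 4 sham samples, with 1 point per sample and the mean ± SD beside them (the lower bar of Slc7a11 in IUGR is cut at 0). The groups are apart for Pdia4 and Dnajc3 and overlap for the other 10 genes, and the IUGR points of Slc7a11 are spread around the sham points.

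ATF4 targets were then set against ER chaperones. The mean log2 CPM of the 15 ATF4 targets was 4.97 ± 0.25 in IUGR hippocampi, compared with 4.94 ± 0.14 in sham hippocampi (SD, n = 4 each). That of the 14 chaperones was 7.06 ± 0.08 in IUGR and 7.12 ± 0.02 in sham samples. Within each sample the targets minus the chaperones gave -2.03 (T1-1), -1.90 (T1-3), -2.34 (T1-4) and -2.08 (T1-5) in IUGR and -1.98 (S1-4), -2.28 (S1-6), -2.25 (S3-1) and -2.21 (S3-4) in sham samples. T1-3 had the highest and T1-4 the lowest difference of all 8 samples, so that the sham range lay inside the IUGR range. The mean of this difference was -2.09 ± 0.18 in IUGR and -2.18 ± 0.13 in sham samples, which is 0.09 apart. The difference between the class medians of the fitted log2 fold changes was also 0.09; it was 0.0064 without T1-1 and T1-4 and turned negative with the choroid plexus covariate (-0.04). Slc7a11 is 1 of the 15 targets and shared the order of T1-3 and T1-4.

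**Figure D4:**
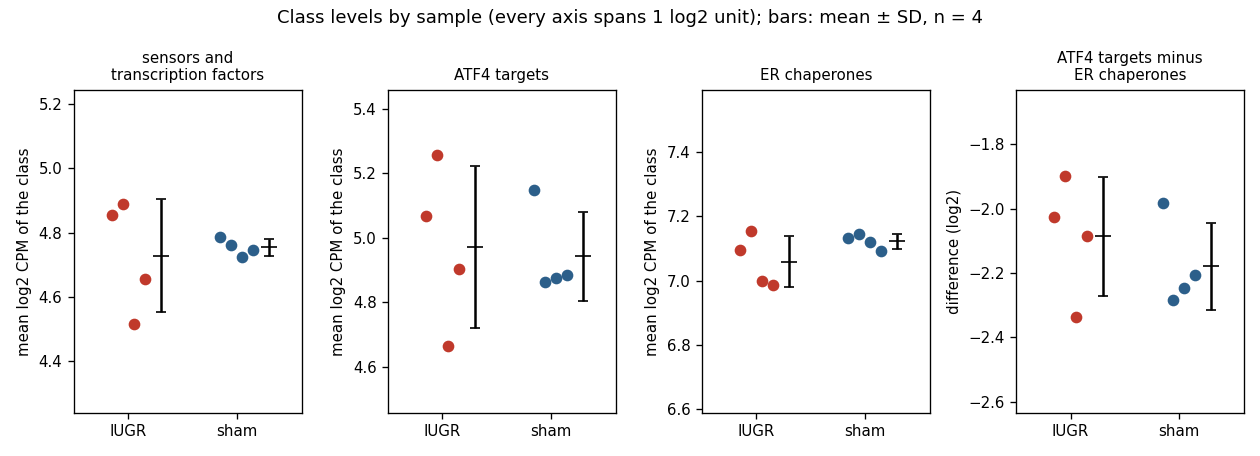
Mean log2 CPM of each class and the difference between ATF4 targets and ER chaperones, with 1 point per sample, mean ± SD (n = 4) and axes that each span 1 log2 unit. In all 4 panels the groups overlap, and the IUGR samples are more spread than the sham samples.

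The spread between samples was larger in IUGR for most members. The SD of log2 CPM was higher in IUGR than in sham samples for 29 of 38 members, beside 52.6% of all tested genes. The median SD of the members was 0.20 in IUGR and 0.16 in sham samples, and both were below the medians of all genes (0.26 and 0.26). This is a description without a test, since members that are expressed together in the same samples do not give independent values.

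Other genes of these pathways were examined in lists beyond the members. Of 35 further ATF4 and amino acid response genes tested, 12 were higher and 23 lower and 0 had an unadjusted p under 0.05, beside 11.1% of all genes. Ppp1r15a (GADD34), which brings a phosphatase to eIF2α and ends the response, had the largest fall where the mean count reached 50, at 9.78 to 12.4 CPM in IUGR samples, compared with 13.3 to 15.3 CPM in sham samples. Every IUGR sample lay below every sham sample, which also held for 5.06% of all genes. The difference did not pass the test (log2 fold change -0.34, SE 0.16, edgeR adjusted p = 0.468). Ddit4 (REDD1), an mTORC1 inhibitor, had the largest rise where the mean count reached 50 (0.31, SE 0.19, edgeR adjusted p = 0.728). The 11 genes of eIF2, eIF2B and their regulators ranged from -0.18 (Eif2b5) to 0.18 (Eif2s3x), with 0 at an unadjusted p under 0.05, beside 11.1% of all genes.

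Of 38 further ER folding and ERAD genes tested, 15 were higher and 23 lower, and 2 had an unadjusted p under 0.05, both lower. These are 5.26% of the list, beside 11.1% of all genes (6.62% lower). Sil1, a nucleotide exchange factor of BiP, had the largest fall in this list, with 14.8 to 18.4 CPM in IUGR samples, compared with 22.0 to 33.2 CPM in sham samples. Every IUGR sample lay below every sham sample, which also held for 5.06% of all genes. The adjusted p was just under 0.1 (log2 fold change -0.67, SE 0.17, edgeR adjusted p = 0.0999). Pdia5, a disulfide isomerase, was the 1 gene of this list with every IUGR sample above every sham sample, beside 2.08% of all genes. It was at 5.73 to 6.39 and 5.02 to 5.57 CPM (0.15, SE 0.19, edgeR adjusted p = 1.00). Ssr2, a subunit of the translocon-associated complex, was the other gene lower at an unadjusted p under 0.05 (-0.33, edgeR adjusted p = 0.420), and the largest rise was that of Sec24d, a coat protein of ER export (0.31, edgeR adjusted p = 1.00).

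Chaperones outside the ER also lay close to sham levels. The median log2 fold change of the 10 tested cytosolic heat shock genes was -0.04, with Dnajb1 lowest (-0.22) and Hsp90ab1 highest (0.07) where the mean count reached 50. The 10 mitochondrial chaperones and proteases ranged from -0.18 (Clpx) to 0.02 (Hspe1), with 9 lower and 1 higher. In both lists 0 genes had an unadjusted p under 0.05, beside 11.1% of all genes. No gene of the 5 additional lists had an adjusted p of at most 0.05 by edgeR, beside 1.55% of all genes.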

How the data were processed

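Total RNA of E15.5 hippocampi (4 IUGR, 4 sham) was depleted of ribosomal RNA and sequenced as stranded single reads. The authors deposited raw counts per gene, without normalization. The submitters' processing notes name Novoalign 2.8 and mm10; the counting program, annotation and strand setting are not given in the sources used here. Of 16397 identifiers, 16124 matched GENCODE M21. The 13707 protein-coding genes whose mean count was 10 or more but less than 50000 were tested in R 4.3.3 with edgeR 4.0.16 (TMM, quasi-likelihood test, Benjamini-Hochberg adjustment over all tested genes), without covariates. The 95% confidence intervals use the SE implied by the test. Log2 CPM has a prior count of 2. The script was tested on simulated data. The 12 within-group pairs of samples differed by more than sampling noise (chi-square per degree of freedom 27.2 to 71.8).

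The members and all lists were chosen with earlier results of these data known. Values in every sample are given for members with an unadjusted p under 0.05, for the largest rise and fall of each class, and for Atf4, Ddit3, Xbp1, Hspa5, Asns and Eif2ak3. From the additional lists, the largest rise and fall with a mean count of at least 50 are named. The alternatives were DESeq2 1.42.0 size factors and Wald test, upper-quartile scaling, limma-voom (limma 3.58.1), no count filter, a mean count of at least 50, all biotypes, the adjusted p alone, samples left out, S1 or S3 sham samples alone, a choroid plexus covariate and a replicate block. Other tissues and assays of the study were not analysed here.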

Additional observations from a re-analysis of the deposited data

Results flagged for a closer look

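In 4 of the 78 sets of 4 values (39 members in each group), 1 sample stood far from the other 3, which chance gives in about 1 set of 20. Atf6, the ER stress sensor, was at 57.9 CPM in IUGR sample T1-1 and at 45.1 to 46.5 CPM in the other IUGR samples. Sdf2l1, a partner of BiP cochaperones, was also high in T1-1, at 19.6 CPM beside 14.1 to 14.98 CPM. Slc7a3 was at 2.21 CPM in IUGR sample T1-3 and at 1.42 to 1.52 CPM in the others. Trib3 was at 0.555 CPM in sham sample S1-4 and at 0.0866 to 0.157 CPM in the other sham samples, a gap of few counts.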

How the results depend on the processing

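The count of members called was 0 without a covariate or block, and 1 with the choroid plexus covariate (beside 1.65% of all genes) or the replicate block (beside 3.22%), in both cases Slc7a11, higher in the first (3.01) and lower in the second (-2.56, edgeR adjusted p = 0.0161); the cause was not tested. The replicate block fit held only the 5 samples whose number occurs in both groups (T1-1, T1-4, S1-4, S3-1 and S3-4), without T1-3, T1-5 and S1-6. It gave 442 calls over all genes, compared with 200 in the main fit, and the parts of the block and of the missing samples cannot be told apart. Same-numbered samples did not deviate together (r from -0.11 to 0.09 over 3 pairs), so the numbers are not taken as pairs. The count of members at an unadjusted p under 0.05 was 3, and 1 with S1 or with S3 sham samples alone and from 1 (without T1-3 or S1-6) to 4 (without T1-1) with 1 sample left out. The median of the ER chaperones turned to 0.0275 with S3 sham samples alone and to 0.0029 without S1-6 or with the replicate block, and that of the sensors and transcription factors (0.01) ran from -0.0665 with the covariate to 0.0948 without S1-6. The median of the ATF4 targets (0.04) turned to -0.034 without T1-1 and T1-4, -0.0479 with the covariate and -0.0151 with the replicate block, and the targets minus the chaperones (0.09) turned to -0.0354 with the covariate and -0.018 with the replicate block. The sign was the same in every alternative run for 11 of the 38 members and changed in at least 1 for the other 27, among them Atf5 (-0.35 to 0.54), Psph (-0.20 to 0.33), Sesn2 (-0.49 to 0.18) and Ern1 (-0.18 to 0.18). Among members given in every sample other than Slc7a11 it changed, none past the threshold, with the covariate for Eif2ak2 (0.29), Hspa5 (0.0479) and Eif2ak3 (-0.0271), with the replicate block for Atf3 (-0.55), Xbp1 (-0.036) and Asns (-0.22), with S1 sham samples alone for Herpud1 (-0.0294) and Eif2ak3 (-0.0231), and without T1-1 and T1-4 for Eif2ak3 (-0.0039). With 1 sample left out, the log2 fold change ran from -0.0847 to 0.61 for Atf3, from -0.12 to 0.0304 for Atf4, from -0.0117 to 0.12 for Xbp1 and from -0.0146 to 0.19 for Eif2ak3. Calls over all genes ran from 41 to 298 with 1 sample left out and were 425 with DESeq2, 0 with S1 and 2 with S3 sham samples alone, and 73 with a mean count of at least 50. Low counts limit Trib3, Atf3, Slc7a3 and Chac1.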
